A study of Mus musculus with 96 samples.

Results

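The regions described here hold a strong match to the ESRRB motif and no match to the GATA6 motif, although each was called as a GATA6 binding region. Of 42403 GATA6 regions, 3677 had an ESRRB motif score in the high class and 4351 had no GATA6 motif, and 343 met both conditions. The 40 of these with a high OCT:SOX motif score were left out, which gave 303 members, 0.715% of all regions. The rule itself used motif scores only. Each member, like all regions, had first been called as a GATA6 binding region, so GATA6 signal in some condition was required. ESRRB scores of the members ran from 11 to 18.5 with a median of 13.8, and the highest score just outside the high class among regions with no GATA6 motif was 10.9.

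ESRRB is an orphan nuclear receptor that binds as a monomer to AGGTCA preceded by a short extension, most often TCA, and it sustains the self-renewal of naive pluripotent cells together with OCT4 and SOX2. GATA6 is a zinc finger factor that recognises WGATAR sequences and drives the primitive endoderm (PrE), the extraembryonic lineage that arises beside the epiblast in the blastocyst. SOX17 is an HMG-box factor that acts downstream of GATA6 in that lineage. ChIP-seq measures how much DNA of a region is recovered with an antibody to a factor, so a signal can come from direct contact with a motif or through other bound proteins.

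The study followed GATA6, SOX17, OCT4, SOX2 and ESRRB by ChIP-seq while induced GATA6 turned mouse embryonic stem (ES) cells towards PrE. KH2 ES cells of a C57BL/6 x 129/Sv background carried a gata6 cassette that responds to doxycycline (Dox), and were collected without Dox and after 8 h, 16 h, 1, 2 and 4 days in 1 µg/mL Dox. Untreated XEN cells of the X10 line, from CD1 mice and resembling the PrE, gave a later reference for all factors but ESRRB. In a further experiment the inducible cells received Oct4 or control siRNA together with Dox, and GATA6 and SOX17 were profiled at 48 h. Before fixation with DSG and formaldehyde the cells were freed of feeders by adsorption, and input chromatin carried no antibody selection. Both lines are established cultures, so cells of one line stand for each condition, and induction rests on a transgene rather than on the endogenous gene alone.

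The 96 libraries fall into 47 conditions, of which 45 have a column of values, with 1 to 3 libraries pooled in each. Values are RPM, reads scaled to the size of the library, counted over a whole region, so they grow with region width, and the members were slightly narrower (median 463 bp) than all regions (524 bp). Because replicates share a column, no replicate spread and no test can be given. Medians with quartiles and shares with Wilson 95% intervals describe the spread and the counting of regions only, and no difference below can be weighed against variation between cultures. GATA6 before Dox and OCT4 in XEN cells rest on a single library each. In 4 columns the reads behind a value could be recovered: the members' median was 18 reads for ESRRB at 8 h (of 9.10 M reads in the column), 3 for GATA6 before Dox (6.12 M), 12 for SOX17 at 16 h (20.0 M) and 3 for OCT4 in XEN cells (7.502 M). For GATA6 before Dox 67 members stood at the lowest step, worth 1 read, as did 60 members for OCT4 in XEN cells. No region was at 0, so whether that step stands for a read or for an added constant cannot be told, and ratios against those columns are coarse.

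The sequences below, each of 30 bases from the mm10 genome (GRCm38), show what the rule selected at the members with the most ESRRB or the most late GATA6. Capitals mark the 11 bases of the best ESRRB match, read 5′ to 3′ on the strand of the match.
Mllt6 promoter (chr11:97662621-97662650, plus strand): aattgggagtTCAAGGTCATCcttcactaa
Tet1 intron (chr10:62897045-62897074, plus strand): gactggaagcTCAAGGTCACCcttggctcc
Eno1 promoter (chr4:150236808-150236837, plus strand): ggccgagccgCGAAGGTCATCagcaaggtc
region nearest to Smyd2 (chr1:189846642-189846671, minus strand): gctgaagtgcTGAAGGTCACCactaagtga
region nearest to Dab2 (chr15:6259969-6259998, plus strand): taaagacacaGGAAGGTCATCcaccctaaa
The first 2 show the full TCAAGGTCA, while the other 3 keep AAGGTCA behind a different start.

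At 293 of the 303 members the best match contained AAGGTCA. The bases ahead of it varied: 92 matches began TCAAGGTCA, 78 GCAAGGTCA, 52 CCAAGGTCA and 22 ACAAGGTCA. The median ESRRB level before Dox was 2.80 RPM at matches beginning TCAAGGTCA, 2.21 at CCAAGGTCA, 1.82 at GCAAGGTCA and 1.41 at ACAAGGTCA. Their motif scores, which follow the same letters, had medians of 16.6, 14.8, 13.3 and 13.1. The quartiles of ESRRB overlapped widely, from 1.28 to 4.22 RPM for TCAAGGTCA and from 0.799 to 3.69 RPM for ACAAGGTCA.

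A small number of members held the core in long arrays. The stretches below come from 2 such members and are shown because the highest ESRRB level of all regions lay on one of them; every AGGTCA is in capitals.
array near Capn2 (chr1:182500977-182501006, plus strand): caAGGTCAatatggAGGTCAAGGTCAacac
its continuation (chr1:182501007-182501036, plus strand): agAGGTCAAGGTCAatatggAGGTCAaggt
array near Tnik (chr3:28113940-28113969, plus strand): gaAGGTCAtccttagacagacAGGTCAtcc
its continuation (chr3:28113970-28113999, plus strand): ccactcaAGGTCAtccaAGGTCAtccttag
The array near Capn2, which encodes a calcium-dependent protease, held 18 copies of AGGTCA within 234 bases. The array nearest to Tnik, which lies in an intron of the phospholipase gene Pld1, held 17 copies within 257 bases. All copies of either array ran on a single strand. At least 8 copies were found in 2 of the 303 members and in 7 of all 42403 regions.

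A recurring stretch of 14 bases, GGCAGCAAGGTCAA, was noticed when the members' sequences were read, and its copies are shown because they account for 56 of the 303 members (18.5%). In the first line of each pair AGGTCA is in capitals, with GATAA where present, and the second line is a stretch upstream with AACAA in capitals.
copy nearest to Tmprss11d (chr5:86407472-86407501, plus strand): aggtaatctcttcagtggcagcaAGGTCAa
its upstream stretch (chr5:86407426-86407455, plus strand): cctctggtggAACAAtagagccatctaggc
copy nearest to Fgd1 (chrX:151041467-151041496, plus strand): tggtctgattctcagtggcagcaAGGTCAa
its upstream stretch (chrX:151041421-151041450, plus strand): gtgacagAACAAtagagccatctaagtggg
copy nearest to Ghitm (chr14:37520691-37520720, minus strand): taatctccttcttagtggcagcaAGGTCAa
its upstream stretch (chr14:37520737-37520766, minus strand): gtgacagAACAAaagagccatctatgtcag
copy in an intron of Boll (chr1:55352024-55352053, minus strand): aGATAAtctccttattggcagcaAGGTCAa
its upstream stretch (chr1:55352070-55352099, minus strand): actttggctcAACAAtagagtgatctaggg
In the 16 bases before the shared letters, the only stretch searched for this, the first 3 copies hold no GATAA, whereas the copy in Boll, a gene for a germ cell RNA-binding protein, does.

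In the median, ESRRB was present at the members before GATA6 was induced and was lost by day 4. The median ESRRB level of the members was 2.001 RPM before Dox (quartiles 0.930 and 4.02) and 1.98 and 2.11 RPM after 8 and 16 h, then 1.40, 1.00 and 0.364 RPM on days 1, 2 and 4 (quartiles at the end 0.257 and 0.539). Over all regions the medians were 0.574, 0.659, 0.684, 0.549, 0.467 and 0.398 RPM at the same times. The members therefore started at 3.48 times the level of all regions, or 3.97 times per kb of width, and ended beneath it. At day 4 their ESRRB median was under that of input chromatin, 0.396 RPM. The starting median depended on which regions were admitted: it was 1.33 RPM over the 92 members with no OCT:SOX motif of any class and no high SOX17 motif, and 1.12 RPM over the 675 regions obtained when mid ESRRB scores were admitted.

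Before Dox 265 members (87.5%; Wilson 95% interval 83.3 to 90.7) stood above the median of all regions, and 70 (23.1%; 18.7 to 28.2) stood above their 95th percentile of 4.17 RPM. The median change of the members was 0.01 on the log2(RPM + pseudocount) scale at 8 h and 0.06 at 16 h. It was then -0.40 at day 1, -0.81 at day 2 and -2.02 at day 4, against -0.09, -0.28 and -0.40 over all regions. With a pseudocount 10 times larger the change to day 4 was -0.85. From before Dox to day 4, ESRRB fell more than 2-fold at 247 members (81.5%; 76.8 to 85.5), a change that 25.2% of all regions showed. The loss thus began after 16 h, and the median change over the last interval, from day 2 to day 4, was -1.15. Input at the members changed by -0.10 from before Dox to day 4.

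**Figure D1:**
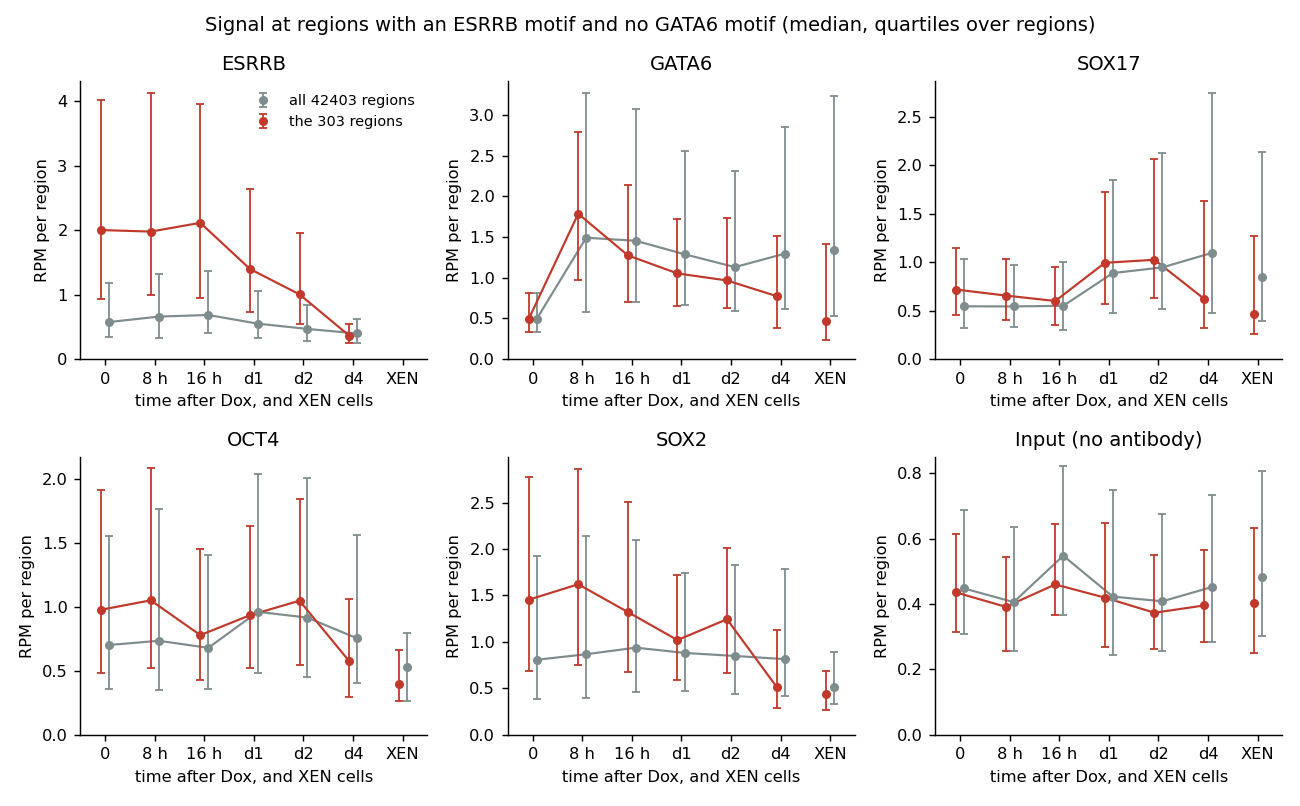
Median RPM per region (y axes, linear, with bars for the quartiles over regions) against time after Dox and in XEN cells for 5 factors and input, for the 303 regions with an ESRRB and no GATA6 motif (red) and all 42403 regions (gray). ESRRB of the members starts at 2.001 RPM and ends at 0.364 RPM, while their GATA6 peaks at 8 h with 1.79 RPM; ESRRB has no XEN value.

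ESRRB also varied widely among the members. The level before Dox was higher where the region held more ESRRB matches: the median was 1.45 RPM at the 203 members with 1 match, 2.61 at the 72 with 2, 5.04 at the 20 with 3 and 11.2 at the 8 with 4 or more. Per kb of width the same groups stood at 3.46, 5.55, 7.87 and 15.0 RPM. Across the 303 members the Spearman correlation was 0.40 between the number of matches and ESRRB before Dox, and 0.23 between the motif score and ESRRB. Members share libraries and differ in width, and width alone had a correlation of 0.48 with ESRRB before Dox, and its part in these values was not tested.

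Chromatin class separated the members further. In the accessibility classes of undifferentiated cells, the median ESRRB level before Dox was 5.20 RPM at the 63 accessible members, 2.05 at the 167 moderately accessible members and 0.649 at the 73 closed members. All regions of the same classes stood at 1.66, 1.07 and 0.407 RPM. Closed members thus held less ESRRB than accessible regions at large. By day 4 the 3 groups of members had come close to each other, at 0.535, 0.335 and 0.357 RPM.

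**Figure D2:**
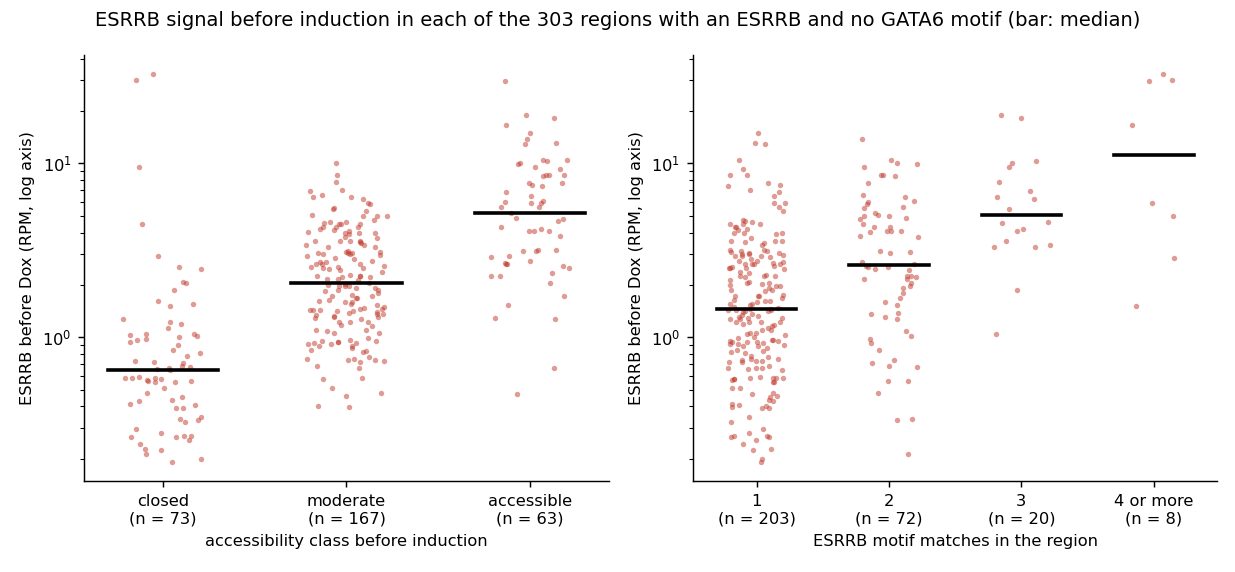
ESRRB RPM before Dox (log axis) of each of the 303 regions, by accessibility class before induction (left) and by the number of ESRRB matches in the region (right); bars are medians. Medians rise from 0.649 RPM at closed to 5.20 RPM at accessible regions, and 2 closed regions lie above 30 RPM.

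The highest ESRRB levels were held by members of very different kinds. The region in an intron of Capn2 (chr1:182500866-182501246), with the array shown above, had 32.6 RPM of ESRRB before Dox, 29.7 and 41.6 RPM after 8 and 16 h, and 24.9, 13.99 and 0.919 RPM on days 1, 2 and 4. It ranked 1 among all 42403 regions before Dox, at 16 h and at day 1. The region nearest to Tnik (chr3:28113844-28114354) had 30.2, 33.0, 35.9, 20.1, 9.27 and 1.00 RPM at the same times. Both were closed, carried marks of constitutive heterochromatin and fell in the authors' class without a pluripotency factor peak. That class is a single label for OCT4, SOX2 and ESRRB, and whether an ESRRB peak was called at these regions was not checked. Before Dox the Capn2 region had 0.990 RPM of OCT4 and 1.12 of SOX2, and the Tnik region 0.929 and 1.78 RPM, where the members had medians of 0.979 and 1.45 RPM. GATA6 at 8 h was 1.25 RPM at the Capn2 region and 2.70 RPM at the Tnik region, on either side of the members' median of 1.79 RPM.

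The next 4 were accessible members with a pluripotency factor peak. At the promoter region of Mllt6, a gene for a chromatin-binding protein, ESRRB was 29.9 RPM before Dox, 28.999 and 30.5 RPM after 8 and 16 h, and 18.6, 13.4 and 1.84 RPM on days 1, 2 and 4. At the promoter of Eno1, which encodes a glycolytic enolase, the values were 19.1, 16.1, 23.1, 13.5, 8.83 and 1.16 RPM. In an intron of Tet1, an oxidase of 5-methylcytosine active in ES cells, they were 18.3, 16.6, 18.6, 10.6, 7.49 and 1.09 RPM. In an intron of Nmnat2, a gene of NAD synthesis, they were 16.6, 13.6, 19.0, 13.04, 10.0 and 1.51 RPM. All 6 regions kept their ESRRB through 16 h, had less at day 1 and less again at day 2, and were at 0.919 to 1.84 RPM by day 4. Members took 3 of the top 10, 6 of the top 100 and 33 of the top 1000 places among all regions ranked by ESRRB before Dox.

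GATA6 reached the members early and did not accumulate. Its median at the members was 0.490 RPM before Dox and 1.79 and 1.27 RPM after 8 and 16 h (quartiles at 8 h 0.977 and 2.79). On days 1, 2 and 4 it was 1.05, 0.966 and 0.774 RPM (quartiles at the end 0.380 and 1.51), and XEN cells had 0.473 RPM. All regions had 0.490, 1.49, 1.45, 1.29, 1.13, 1.29 and 1.34 RPM. In RPM the members were thus above all regions at 8 h and below them from 16 h onwards. Per kb of width they had 1.24 times the median of all regions at 8 h. At 16 h and on days 1 and 2 they were near it, at 0.987, 0.927 and 0.991 times. Only at day 4 and in XEN cells were they well below, at 0.568 and 0.345 times. From before Dox to 8 h GATA6 rose more than 2-fold at 220 members (72.6%; 67.3 to 77.3), beside 60.4% of all regions, with a median log2 change of 1.54 against 1.38. From 8 h to day 4 it fell more than 2-fold at 173 members (57.1%; 51.5 to 62.5), beside 34.8% of all regions, and the median change was -1.22 against -0.02. That change was -0.73 without the members whose ESRRB match is soft-masked, as the genome file marks repeats, and -0.64 when mid ESRRB scores were admitted. It rose more than 2-fold over that interval at 49 members (16.2%; 12.5 to 20.7), where 30.9% of all regions did.

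The absence of a scanned GATA6 motif did not mean an absence of its shortest letters. GATAA was searched on both strands within 100 bases of the GATA6 summit and was found at 101 members (33.3%), beside 75.6% of all regions. AGATAA was found at 42 members (13.9%) and 54.3% of all regions. AAGGTCA, the letters the rule favours, lay in that window at 62.4% of members and 7.06% of all regions, and TCAAGGTCA at 15.8% and 1.16%. At 8 h GATA6 was 1.64 RPM (quartiles 0.788 and 2.87) at the 101 members with GATAA and 1.87 RPM (1.02 and 2.69) at the 202 without it. At day 1 those groups had 1.22 and 0.959 RPM and at day 4 0.715 and 0.775 RPM, so neither group held more GATA6 at all of these times.

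The GATA6 summit lay a median of 77 bases from the ESRRB match (quartiles 47.5 and 156), and within 100 bases at 185 members (61.1%). Across members, GATA6 at 8 h went with ESRRB before Dox (Spearman correlation 0.73, n = 303), while GATA6 at day 4 had a correlation of 0.15 and GATA6 in XEN cells one of -0.00 with it. OCT4 and SOX2 before Dox had correlations of 0.80 and 0.81 with ESRRB before Dox. Input before Dox had 0.66, and region width had 0.68 with GATA6 at 8 h, and the part of size and recovery in the other values was not tested.

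Other motif groups place these values, without a test against the members. The 1034 regions with high ESRRB and GATA6 scores and no high OCT:SOX score were wider (median 847 bp). Regions with a mid or low GATA6 score were not in this group. The group had a median ESRRB level of 1.88 RPM before Dox, which per kb was exceeded 1.91 times by the members. Their GATA6 was 3.96 RPM at 8 h and 1.64 at day 4. The members had 0.451 times that level at 8 h, or 0.823 times per kb, and 0.472 times at day 4, or 0.725 times per kb. ESRRB fell more than 2-fold to day 4 at 65.9% of these regions. The 328 regions with a high OCT:SOX score and no GATA6 motif had 0.993 RPM of ESRRB before Dox, and GATA6 of 1.91 RPM at 8 h and 0.504 at day 4. There GATA6 fell more than 2-fold from 8 h to day 4 at 75.6% of regions, so early and passing GATA6 was seen there as well.

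By the authors' classes of GATA6 binding over time, 211 members were Transient (69.6%; 64.2 to 74.5), 61 Late (20.1%) and 31 Early & Constant (10.2%). All regions divided as 38.4%, 33.6% and 28.0%. The class was built from GATA6, so GATA6 levels describe it and do not test it. Transient members had 2.08 RPM of GATA6 at 8 h, 0.521 at day 4 and 0.305 in XEN cells. Late members had 0.558, 1.72 and 2.53 RPM, and Early & Constant members had 3.45, 2.48 and 1.46 RPM.

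ESRRB, which did not enter the class, differed between these members before induction. Its median before Dox was 2.52 RPM at Transient members (quartiles 1.25 and 4.498), 2.51 at Early & Constant members and 0.663 at Late members. At day 4 it was 0.338, 0.580 and 0.394 RPM. From before Dox to day 4 it fell more than 2-fold at 194 of the 211 Transient, 28 of the 31 Early & Constant and 25 of the 61 Late members, with median log2 changes of -2.47, -1.79 and -0.60. All regions of those classes changed by -0.84, -0.47 and -0.0035. ESRRB fell more than 2-fold at 42.7%, 27.1% and 3.55% of them, beside 91.9%, 90.3% and 41.0% of the members.

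**Figure D3:**
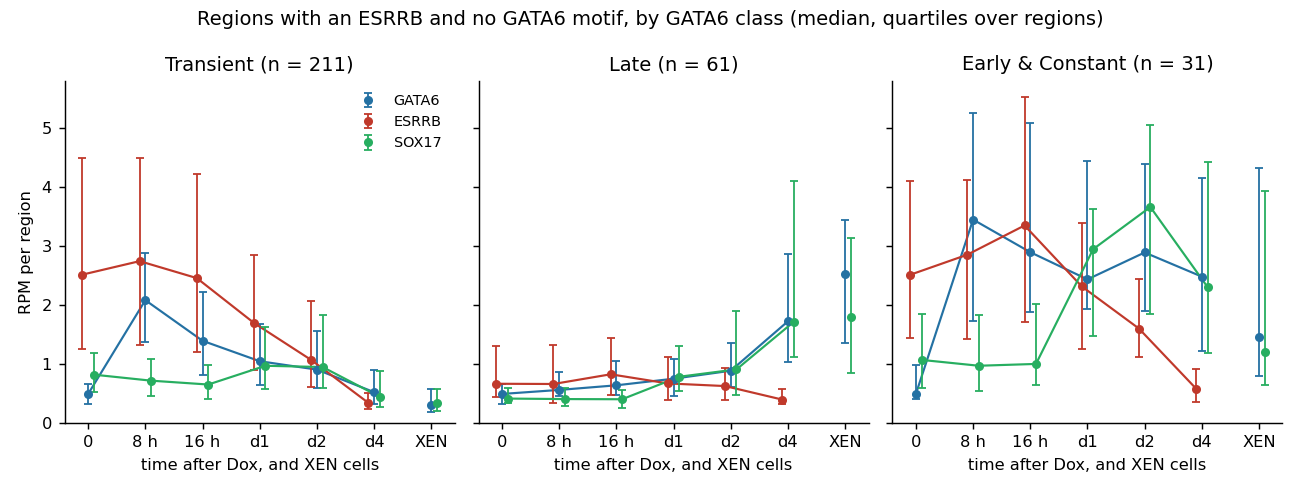
Median RPM per region (y axis, linear, bars for the quartiles over regions) of GATA6, ESRRB and SOX17 against time after Dox and in XEN cells, in the 211 Transient, 61 Late and 31 Early & Constant regions. ESRRB before Dox is 2.52 RPM in the Transient and 0.663 RPM in the Late panel, and SOX17 climbs to 1.71 RPM at day 4 in the Late panel; ESRRB has no XEN value.

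The members were more often open and prebound than regions at large. Before induction 63 were accessible (20.8%, against 7.43% of all regions) and 167 moderately accessible (55.1%, against 31.2%). Together these made 230 members, 75.9% (70.8 to 80.4), beside 38.7% of all regions. This share was 82.3% of the regions with a high OCT:SOX score and no GATA6 motif. It was 63.9% of the regions with no scanned motif. It was 38.6% of those with high ESRRB and GATA6 scores and no high OCT:SOX score. By the authors' combined class of OCT4, SOX2 and ESRRB peaks, 125 members (41.3%, 35.9 to 46.9) and 20.8% of all regions were bound before differentiation. How many of these factors had to be bound is not given by the label. In the same 3 groups the class held 78.0%, 4.95% and 29.2% of regions, so the OCT:SOX regions were prebound more often than the members. A peak of these factors only after induction, the ectopic class, was recorded at 28 members (9.24%, against 16.6% of all regions). The authors' class without binding of these factors held 150 members (49.5%, against 62.6%). Among the 30 members with the most ESRRB before Dox, all above 7.05 RPM, 25 had a peak before differentiation by this combined label. The other 5 fell in the class without a peak at any time, and calls for ESRRB alone were not checked.

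By histone marks of undifferentiated cells, 75 members were active enhancers (24.8%, against 11.2% of all regions), 75 primed enhancers (24.8%, against 16.9%), 43 poised enhancers (14.2%, against 14.6%) and 27 promoters (8.91%, against 6.88%). Constitutive heterochromatin held 44 members (14.5%, against 10.2%), facultative heterochromatin 23 (7.59%, against 22.3%) and unmarked naive chromatin 16 (5.28%, against 17.996%). By the GENCODE annotation 21 members lay within 1000 bases of a transcription start (6.93%, against 5.38%) and 4 in exons (1.32%, against 3.29%). Introns held 115 members (38.0%, against 45.3%), and 163 lay between genes (53.8%, against 46.0%). The median distance to the start of a protein-coding gene was 34030 bases for the members and 31135 bases for all regions.

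The share of Transient regions among the members was compared within chromatin classes. It was 84.1% of the 63 accessible members (64.5% of all accessible regions), 76.0% of the 167 moderately accessible members (57.0%) and 42.5% of the 73 closed members (25.8%). Among the 125 members with a pluripotency factor peak before differentiation it was 82.4% (60.05% of all such regions), and among the 150 without any such peak it was 65.3% (36.5%). The members thus stood above all regions in each of these 5 classes. Regions with a high OCT:SOX score and no GATA6 motif stood at 89.9%, 86.8%, 55.2%, 88.7% and 63.6% in the same order. They were above the members in all but the last class.

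SOX17, in the median, was higher at the members on days 1 and 2 and lower again on day 4. The median was 0.718 RPM before Dox and 0.656 and 0.600 RPM after 8 and 16 h, then 0.995, 1.03 and 0.623 RPM on days 1, 2 and 4, with 0.468 RPM in XEN cells. All regions had 0.545, 0.544, 0.550, 0.888, 0.947, 1.10 and 0.849 RPM. From before Dox to day 2 SOX17 rose more than 2-fold at 92 members (30.4%), close to the 33.1% of all regions. By day 4 it was more than 2-fold above its starting level at 75 members (24.8%), where 44.5% of all regions were, and more than 2-fold below at 67 members (22.1%), where 8.72% were. Median SOX17 before Dox was 1.16 RPM at the 125 members with a pluripotency factor peak before differentiation. It was 0.498 RPM at the 150 without any such peak. SOX2 there was 3.005 and 0.799 RPM, and input 0.531 and 0.375 RPM. The paper describes SOX17 as an early target of GATA6. Whether the signal before Dox, here and at single regions below, reflects SOX17 binding was not tested. The falls counted are falls of that signal. The median SOX17 change from before Dox to day 4 was -0.12, near 0, and its sign turned in 7 alternatives.

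The classes split this course. From day 2 to day 4 the median SOX17 change was -0.70 at Transient, 0.79 at Late and -0.41 at Early & Constant members, against -0.42, 0.88 and 0.15 at all regions of each class. SOX17 at day 4 was 0.440, 1.71 and 2.31 RPM at these members. At day 4 the levels of GATA6 and SOX17 went together across members (Spearman correlation 0.89, n = 303, in different libraries over the same regions). A SOX17 peak by the authors' class was recorded at 134 members (44.2%), beside 44.5% of all regions. The 47 members that also held a high SOX17 motif score had 1.70 RPM of SOX17 at day 2 and 1.06 at day 4, and the 100 with no SOX17 motif had 0.769 and 0.552 RPM.

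In the median, OCT4 and SOX2 were lower at day 4 than before Dox at the members. OCT4 had a median of 0.979 RPM before Dox, 1.05 and 0.781 RPM after 8 and 16 h, 0.936, 1.05 and 0.577 RPM on days 1, 2 and 4, and 0.400 RPM in XEN cells. SOX2 had 1.45, 1.62, 1.32, 1.02, 1.24, 0.516 and 0.435 RPM. Over all regions OCT4 went from 0.703 to 0.756 RPM and SOX2 from 0.808 to 0.815 RPM between before Dox and day 4. OCT4 fell more than 2-fold to day 4 at 115 members (38.0%), beside 19.4% of all regions, and SOX2 at 168 members (55.4%), beside 24.1%. Median log2 changes were -0.70 for OCT4 and -1.23 for SOX2, against 0.16 and 0.10 over all regions. Without the members whose match is soft-masked they were -0.31 and -0.70. At day 2 the OCT4 median was above and the SOX2 median below its starting level. The rule admits regions with a weaker OCT:SOX motif: 149 members had a low score, 50 a mid score and the rest none. OCT4 before Dox had a median of 2.24 RPM at the members with a mid score, 1.13 with a low score and 0.645 with none, and SOX2 had 2.35, 1.56 and 1.10 RPM. ESRRB before Dox was 2.53, 2.34 and 1.28 RPM in the same groups. By day 4 OCT4 was at 0.567, 0.663 and 0.428 RPM, so the spread between the groups was smaller than at the start.

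Knock-down of Oct4 was used in the study to ask how GATA6 and SOX17 depend on it. No expression value was used here to check the knock-down. With control siRNA the members had a median of 1.11 RPM of GATA6, and with Oct4 siRNA 0.864 RPM, while all regions had 1.64 and 1.68 RPM. GATA6 was more than 2-fold lower with Oct4 siRNA at 40 members (13.2%), beside 5.28% of all regions, and more than 2-fold higher at 15 members (4.95%), beside 7.77%. SOX17 was 0.780 RPM with control and 0.818 RPM with Oct4 siRNA, against 0.812 and 1.29 RPM over all regions. It was more than 2-fold higher at 33 members (10.9%), beside 20.8%, and more than 2-fold lower at 5 members (1.65%), beside 0.441%.

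The direction of the GATA6 difference followed the class of the member. At Transient members the median log2 difference between Oct4 and control siRNA was -0.44, with 38 of 211 more than 2-fold lower and 0 more than 2-fold higher. At Late members it was 0.51, with 15 of 61 higher and 1 lower, and at Early & Constant members -0.15, with 1 of 31 lower. All regions of those classes stood at -0.31, 0.48 and -0.06. Over all members the GATA6 difference was -0.27, and it was -0.15 without the members whose match is soft-masked. SOX17 differed by 0.05, 0.75 and 0.27 at the members of each class, and by 0.27, 0.83 and 0.55 at all regions of each class.

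**Figure D4:**
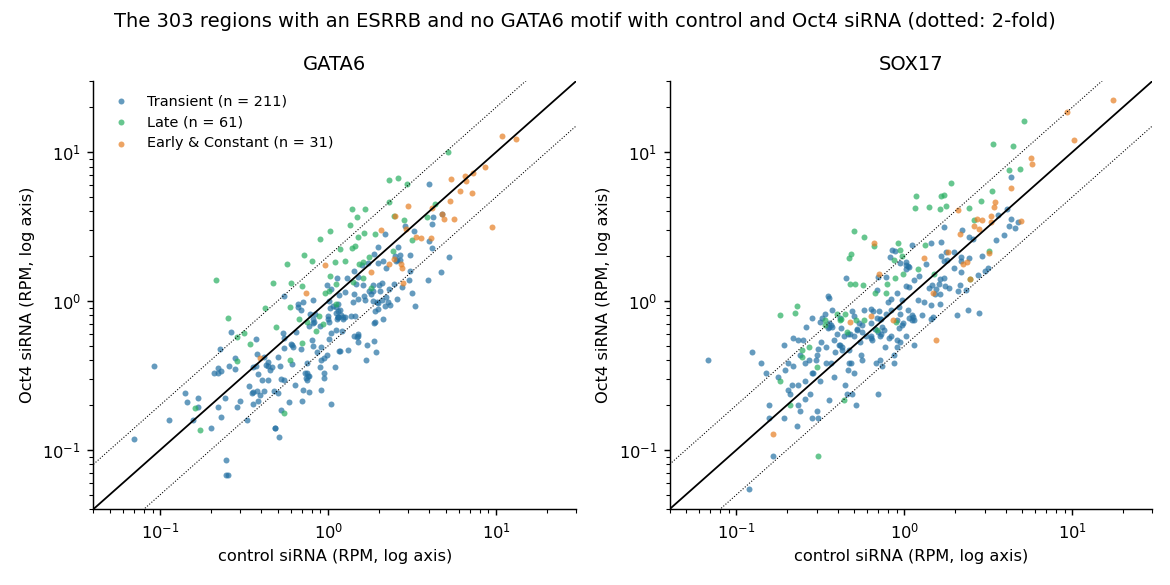
RPM with Oct4 siRNA (y, log axis) against RPM with control siRNA (x, log axis) for GATA6 (left) and SOX17 (right), 1 point per region of the 303, colored by GATA6 class; the solid line marks equality and dotted lines 2-fold. For GATA6, 38 Transient regions were more than 2-fold lower and 15 Late regions more than 2-fold higher on the log2(RPM + pseudocount) scale. The dotted lines are drawn without a pseudocount, so more points can lie beyond them.

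The shared stretch GGCAGCAAGGTCAA set 56 members apart by sequence. These lay on 19 chromosomes, and all 56 copies were in soft-masked sequence, the lower-case letters by which the genome file marks repeats. The file does not name the repeat family. Over all members the best ESRRB match was soft-masked at 127 (41.9%), against 29.7% of the 3677 regions with a high ESRRB score. Of all 42403 regions 170 held the stretch on either strand (0.401%), and each of the 114 that are no members had a GATA6 motif.

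Copies had a common arrangement. The GATA6 summit lay on the 5′ side of the letters at 49 of the 56 members (87.5%), at a median distance of 58 bases (quartiles 42.75 and 79.5), and 20 to 100 bases ahead at 42 of them. At the 114 other regions the median was 59 bases. Among the 247 members without the letters the summit was on the 5′ side of the best match at 135 (54.7%) and 20 to 100 bases ahead at 68. AACAA, letters found in SOX motifs, started 30 to 60 bases ahead of the stretch at 51 of the 56 members and 100 of the 114 other regions. Its commonest start was 52 bases ahead. AACAA was not among the letters planned for the search, and no share without the stretch was counted. Copies of a repeated stretch are not independent, and a part of AACAA in binding was not tested. GATAA lay in the 16 bases before the stretch at 14 of the 56 members and 30 of the 114 others.

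**Figure D5:**
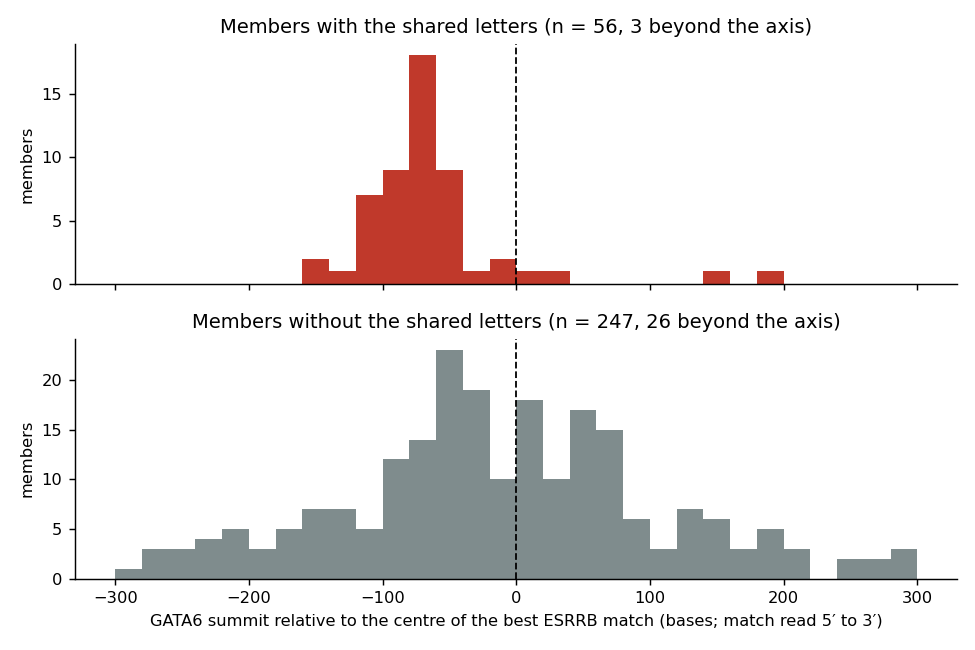
Number of regions (y) by the position of the GATA6 summit relative to the centre of the best ESRRB match (x, bases, match read 5′ to 3′), for the 56 members with the shared letters (top) and the 247 without (bottom). In the top panel the summit lies before the letters at 49 of 56 regions, and in the bottom panel before the match at 135 of 247; a few regions lie beyond the axis.

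GATA6 at these copies was early and brief. Transient was the class of 51 of the 56 (91.1%; 80.7 to 96.1), of 160 of the 247 other members (64.8%) and of 83 of the 114 copies with a GATA6 motif (72.8%). The median GATA6 level at 8 h was 2.09 RPM at the 56, 1.69 at the 247 and 4.12 at the 114, and at day 4 it was 0.450, 0.870 and 0.718 RPM. ESRRB before Dox was 2.04, 1.96 and 3.25 RPM, and at day 4 it was 0.255, 0.390 and 0.418 RPM. SOX2 before Dox was 2.03, 1.39 and 3.39 RPM. SOX17 at day 2 was 1.34, 0.987 and 2.03 RPM, and at day 4 it was 0.376, 0.740 and 0.546 RPM. The 114 were wider, with a median of 774 bp against 477.5 bp for the 56 and 458 bp for the 247. Per kb of width, GATA6 at 8 h was 4.74, 3.91 and 5.31 RPM and ESRRB before Dox 3.95, 4.41 and 4.17 RPM, so the 3 sets lay closer together on that scale.

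A GATAA beside the stretch did not go with more GATA6. At the 14 members with it, GATA6 was 1.92 RPM at 8 h and 0.429 at day 4, and at the 42 without it 2.12 and 0.485 RPM. The copy in Boll, which has GATAA, had GATA6 of 0.163 RPM before Dox, 1.09 and 0.522 RPM after 8 and 16 h, 0.326, 0.151 and 0.126 RPM on days 1, 2 and 4, and 0.132 RPM in XEN cells. The copy nearest to Tmprss11d, which lacks it, had 0.653, 6.03, 3.07, 3.31, 2.85, 0.787 and 0.473 RPM. Its ESRRB was 7.40 RPM before Dox and 0.364 at day 4, against 0.574 and 0.141 RPM at the copy in Boll. The Boll region (chr1:55351948-55352163) was narrower than the Tmprss11d region (chr5:86407172-86407689), and input before Dox was 0.236 and 0.776 RPM. RPM grows with width, so these single copies do not stand for copies with and without GATAA. The region nearest to Brinp3 and the region in an intron of Apobec3, a gene for a cytidine deaminase that restricts retroviruses, carried copies too and were among the 6 members highest in GATA6 at 8 h, with 9.47 and 7.41 RPM. How uniquely reads align to such copies was not tested.

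All 6 members with the most GATA6 at 8 h had less of it at day 4. It went from 7.41 to 3.94 RPM at the Apobec3 region and from 9.47 to 1.196 RPM at the Brinp3 region. Since the 8 h value chose these 6, their lower later values describe them and do not test a loss. The region in an intron of Lipc, which encodes hepatic lipase, had GATA6 of 1.31 RPM before Dox, 16.0 and 20.4 RPM after 8 and 16 h, 11.05, 9.06 and 6.15 RPM on days 1, 2 and 4, and 10.7 RPM in XEN cells. Its SOX17 rose from 6.18 RPM before Dox to 17.9 at day 2 and was 14.4 in XEN cells. In an intron of Fhit, a hydrolase gene, GATA6 was 0.490, 15.7, 9.89, 4.70, 4.32, 0.971 and 0.336 RPM at the same points, with less at day 4 than 16 h after Dox. With Oct4 siRNA the Fhit region had 3.14 RPM of GATA6 against 9.40 with control siRNA, while the Lipc region had 12.3 against 13.1.

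The region nearest to Stoml1 held much OCT4 and SOX2 before Dox, 25.9 and 31.2 RPM, with 13.2 RPM of ESRRB. Its GATA6 was 1.47, 11.5, 5.95, 3.53, 3.85, 2.46 and 0.639 RPM, and all 3 pluripotency factors were down to 0.859 to 2.89 RPM at day 4. In an intron of Akap12, which anchors protein kinase A, GATA6 was 1.14, 9.83, 6.84, 6.00, 4.76, 2.42 and 1.07 RPM, beside ESRRB of 13.9 RPM before Dox and 0.941 at day 4.

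The 6 members with the most GATA6 at day 4 comprised 4 of the Early & Constant class, nearest to Smyd2, Rhou, Tnfsf18 and Armc2, and 2 of the Late class, nearest to Dab2 and Tmem182. The region nearest to Smyd2, in an intron of the phosphatase gene Ptpn14 (chr1:189846092-189847182), had GATA6 of 0.980 RPM before Dox, 1.58 and 2.90 RPM after 8 and 16 h, 6.07, 11.3 and 22.4 RPM on days 1, 2 and 4, and 31.6 RPM in XEN cells. Its SOX17 was 1.07, 1.17, 1.45, 12.0, 22.2, 34.7 and 31.3 RPM. ESRRB there rose first and then fell, with 1.87, 2.09, 2.40, 3.39, 4.82 and 1.60 RPM. OCT4 went from 0.979 RPM before Dox to 7.01 at day 4, and SOX2 from 1.09 to 10.7, which placed the region in the ectopic class. It was closed before induction and had input of 0.894 RPM before Dox and 2.32 at day 4.

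Dab2, an endocytic adaptor of the visceral endoderm, was the only gene of the primitive endoderm list with a member within 50 kb. That region (chr15:6259733-6260526) had GATA6 of 0.980, 0.856, 0.816, 1.08, 1.46, 7.53 and 9.44 RPM and SOX17 of 0.664, 0.626, 0.600, 2.17, 4.30, 18.04 and 17.7 RPM. ESRRB stayed between 0.769 and 1.76 RPM throughout. With Oct4 siRNA its GATA6 was 6.54 RPM against 2.30 with control, and its SOX17 16.1 against 5.14.

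The other members with the most GATA6 at day 4 lay nearest to Rhou (7.46 RPM), Tmem182 (7.19), Tnfsf18 (7.03) and Armc2 (6.67). The Armc2 region already had 7.35 RPM at 8 h. Tnfsf18 encodes a ligand of the TNF family. ESRRB before Dox at these 4 was 2.64, 0.561, 0.575 and 3.56 RPM, beside a median of 2.001 RPM over the members. For SOX17 at day 4, the regions nearest to Vps8, an endosomal tethering gene, and at the promoter of Pef1, a calcium-binding protein, completed the top 4, with 13.5 and 13.2 RPM. The Vps8 region had 1.15 RPM of SOX17 before Dox and 20.7 in XEN cells, whereas the Pef1 region had 5.48 and 4.15 RPM, with 17.3 RPM at day 2.

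Of 30 pluripotency genes, 1 (Tet1) had a member within 50 kb of its start, and the 1 member near it is 0.330% of members, beside 0.347% of all regions near the list. For 30 primitive endoderm genes the shares were 0.330% and 0.450%. For 30 genes of energy metabolism they were 0.660% and 0.0778%, from 2 members, near Cox5a and Esrra. The region in an intron of Cox5a, a subunit of cytochrome c oxidase, had ESRRB of 1.36, 1.65, 1.02, 0.872, 0.629 and 0.513 RPM from before Dox to day 4, and GATA6 of 2.64 RPM at 8 h.

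The region in an exon of Esrra (chr19:6919649-6920555), the gene for an orphan receptor related to ESRRB, stood apart in 3 columns. It had 96.4 RPM of GATA6 before Dox (590 reads), 136.0 RPM of OCT4 in XEN cells (1020 reads) and 63.1 RPM of SOX2 in XEN cells. Each was the highest value of all 42403 regions in its column, and the next highest were 10.8, 46.5 and 19.6 RPM. In other columns it was not the highest. ESRRB was 2.85 RPM before Dox, 4.72 and 3.99 RPM after 8 and 16 h, and 8.54, 0.655 and 0.431 RPM on days 1, 2 and 4, and its day 1 value was above the 95th percentile of all regions, 3.30 RPM. SOX17 was 2.98, 3.35 and 2.80 RPM before Dox and after 8 and 16 h, above the 95th percentiles of 2.63, 2.34 and 2.45 RPM. GATA6 was 3.48 RPM at 8 h and 0.870 at day 4, OCT4 before Dox was 2.10 RPM, and input ranged from 0.656 to 1.69 RPM. Its best match (chr19:6919730-6919759, minus strand, match in capitals) follows.
Esrra exon: catcagagatTCAAGGTCATCattgactac
The cause of the 3 high values was not tested.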

How the data were processed

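The authors trimmed reads with cutadapt, aligned them to mm10 with Bowtie2, filtered by mapping quality and unique molecular identifiers, called peaks with MACS2 and counted reads per GATA6 region. The deposited values are RPM, corrected to library size, with the replicates of a condition in 1 column. The deposited motif score is that of the best FIMO match in a region, with a class of it, and other deposited columns hold classes of GATA6, SOX17 and pluripotency factor binding, accessibility and histone marks. Here, changes were differences of log2(RPM + pseudocount), with the pseudocount at percentile 5 of each assay (ESRRB 0.164 RPM, GATA6 0.193, SOX17 0.192, OCT4 0.167, SOX2 0.195, input 0.158). Changes past 2-fold on that scale, which understates changes of low regions, were counted. No count test was run because replicates are pooled, although values of 4 columns were whole multiples of 1 read (100% within 0.01).

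Groups came from the sample labels. The members and gene lists were chosen with earlier results of these data known. Regions named were the 6 members highest in ESRRB before Dox, the 6 in GATA6 at 8 h, the 6 in GATA6 at day 4, the 4 in SOX17 at day 4, and members within 50 kb of a listed gene; the Boll, Tmprss11d, Fgd1 and Ghitm copies were chosen after their sequences were seen. ESRRB peak calls were planned as a result, and the authors' combined class of OCT4, SOX2 and ESRRB peaks before differentiation was used in their place. The authors' DESeq2 outcome for Oct4 siRNA and 14 columns of accessibility and histone values (7 and 7) were not used. Sequences were read from GRCm38, gene positions from GENCODE M21, with Python 3.11.15, numpy 2.4.6, pandas 2.3.3, scipy 1.17.1, pysam 0.24.0, samtools 1.23.1 and matplotlib 3.10.9. The scripts were tested on simulated data. Alternatives changed the pseudocount, filter, summary, reference and membership. Depths of the 4 columns with recovered reads ran from 6.12 to 20.0 M reads, and counting error limits values of few reads.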

Additional observations from a re-analysis of the deposited data

How the results depend on the processing

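No paired analysis was possible because the libraries of a condition share 1 column, and for the same reason no replicate could be left out. Over 121 recomputed values, 57 moved by less than the interval of the median over regions or of the share, 56 moved further in the same direction and 8 turned, of which 7 were the SOX17 change from before Dox to day 4 (-0.12 as reported). No turn or move came from leaving out the members in promoter state, or the 6 with the highest ESRRB. In the values below on the log2 scale, the changes are ESRRB, SOX17, OCT4 and SOX2 from before Dox to day 4, early GATA6 from before Dox to 8 h, later GATA6 from 8 h to day 4, and GATA6 and SOX17 differences between Oct4 and control siRNA. The cause was not tested except where a setting shrinks or widens folds by its own construction, as the pseudocount does.

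With the pseudocount 10 times larger, ESRRB changed by -0.85, early GATA6 by 0.60, later GATA6 by -0.50, OCT4 by -0.23 and SOX2 by -0.44, and the siRNA differences were -0.093 and 0.067. With it 10 times smaller, ESRRB changed by -2.49, early GATA6 by 1.90, OCT4 by -0.93 and SOX2 by -1.57. With low regions filtered out, ESRRB changed by -2.31, early GATA6 by 1.88, later GATA6 by -0.88, SOX17 by 0.70, OCT4 by -1.16 and SOX2 by -1.83, and the siRNA differences were -0.15 and 0.33. As means over regions, ESRRB before Dox was 3.22 RPM, later GATA6 changed by -0.82 and SOX17 by 0.11. After subtraction of input, ESRRB before Dox was 1.49 RPM. As ratios to input, SOX17 changed by 0.027 and OCT4 by -0.54. Relative to the median of all regions, ESRRB changed by -1.62, early GATA6 by 0.16, SOX17 by -0.91 and OCT4 by -0.86, and the siRNA difference of SOX17 turned to -0.32.

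With the 92 stricter members (no OCT:SOX motif of any class, no high SOX17 motif), ESRRB before Dox was 1.33 RPM and changed by -1.83, SOX17 changed by 0.056 and OCT4 by -0.53, the siRNA difference of SOX17 was 0.0032, and 31.5% had a pluripotency factor peak before differentiation. With the 675 wider members (mid ESRRB scores admitted), ESRRB before Dox was 1.12 RPM and changed by -1.35, early GATA6 by 1.29, later GATA6 by -0.64, SOX17 by 0.36, OCT4 by -0.33 and SOX2 by -0.69, the siRNA differences were -0.14 and 0.32, and 55.7% were Transient, 65.2% accessible or moderately so and 31.6% prebound. The next alternatives were added after seeing the data. Without the 56 members that hold the shared letters, later GATA6 changed by -1.01, SOX17 by 0.0022, OCT4 by -0.52 and SOX2 by -0.90, and the siRNA differences were -0.16 and 0.27. Without the 127 members with a soft-masked match, ESRRB changed by -1.80, early GATA6 by 1.37, later GATA6 by -0.73, SOX17 by 0.31, OCT4 by -0.31 and SOX2 by -0.70, the siRNA differences were -0.15 and 0.32, and 59.7% were Transient and 33.0% prebound.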

Other observations

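Among the 30 members with the most ESRRB before Dox, 3 more fell in the class without a pluripotency factor peak at any time. They lay near Minos1 (10.3 RPM), Lnx1 (9.86 RPM) and Agtrap (8.52 RPM), beside the regions near Capn2 and Tnik (chosen after their values were seen). The arrays of AGGTCA were not alike: copies near Tnik were most often 16 bases apart (5 of the steps) and near Capn2 most often 6 bases apart (6 of the steps). Of the Tnik region 39.3% and of the Capn2 region 1.57% of bases were soft-masked.

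The limits are those of pooled columns. Regions are not replicates, and the motif classes rest on the authors' score thresholds. GATA6 before Dox had 3 reads at the median member, so early gains are imprecise per region.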
